A study of Danio rerio with 16 samples.

Results

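Ligand-gated neurotransmitter receptors are ion channels of the cell membrane that open when a transmitter binds, and each channel is built from several subunits encoded by separate genes. The genes described here are those subunits in the zebrafish (Danio rerio): the receptors for GABA, glycine, glutamate and acetylcholine. They were chosen by symbol, as rows of the expression table that start with gabr, gria, grid, grik, grin, glra, glrb or chrn. Of 77 such symbols, 4 that name other proteins were left out, which leaves 73 of the 32513 rows. They comprise 19 GABA-A subunits, 7 glycine receptor subunits, 8 AMPA, 5 kainate, 3 delta and 10 NMDA receptor subunits, 15 neuronal nicotinic subunits and 6 nicotinic subunits of skeletal muscle. All 73 were found in the RefSeq gene table by their gene ID.

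GABA-A and glycine receptors pass chloride and carry most fast inhibition in the brain and spinal cord. AMPA, kainate and NMDA receptors pass cations and carry most fast excitation, with NMDA receptors also passing calcium, and nicotinic receptors pass cations when acetylcholine binds, at the neuromuscular junction and at synapses between neurons. Which subunits a cell makes sets how long a channel stays open, what it passes and where in the cell it sits, and in vertebrates several of these subunits replace each other while circuits form.

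RNA of whole embryos and larvae was sequenced in 16 libraries, with 4 libraries in each of 4 groups. Embryos of the RFR groups, named 5G in the labels, received radiofrequency radiation of 3.5 GHz (about 30 dBm) between 6 and 48 hours post fertilization (hpf) and were collected either 72 h later at 120 hpf or at the end of exposure at 48 hpf. Embryos of the Control groups had no radiation and were collected at the same 2 stages. Zebrafish at 120 hpf are larvae, and the word embryos is used here for the animals of either stage. The labels give neither the strain, nor the number of embryos in a library, nor whether replicates had different parents. A p-value here therefore covers no more than the spread among these libraries, and that spread may be technical. In RNA of whole embryos, fewer cells that make a subunit cannot be told apart from less of its RNA in each cell.

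Levels are given in FPKM, a count of fragments scaled by transcript length and by the mapped fragments of the library. Levels of different genes can therefore be set side by side. Between libraries, and above all between the stages, levels and the summed levels below depend on that scaling. A value after ± is the SD over the 4 libraries of a group where it follows a level or a share, and the standard error where it follows a log2 fold change. Fold changes were taken on the log2(FPKM + 0.5) scale, on which genes at a low level show too small a change. They were tested with limma in 1 fit over all libraries, and a gene is called at a Benjamini-Hochberg adjusted p under 0.05 over the 23026 genes with at least 0.5 FPKM in 4 or more libraries. Of the 73 subunits 67 passed that filter. The other 6, grin3bb, chrnb2l, gabra3, gabrg3, gabrb2l and chrnb1l, had group means between 0.0125 and 0.555 FPKM and were not tested. Zebrafish has 2 copies of many of these genes, marked a and b, and the sources used here do not give how fragments shared by 2 copies were assigned, so the split between the copies of a pair is uncertain.

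Between 39603976 and 49232542 reads per library remained after the authors' filter, of which 66.19 to 67.58% mapped in the older and 69.37 to 71.78% in the younger embryos. Reads of rRNA made up 3.2% in replicate 1 of Control 120 hpf and 0.15 to 0.3% in the other libraries. Markers of the cells that carry these receptors were present: all 24 neuron markers and all 29 skeletal muscle markers averaged at least 0.5 FPKM in every group, whereas 5 of 16 photoreceptor markers were below it in Control embryos at 48 hpf. Replicate 4 of each group had a raw read total unlike that of replicates 1 to 3. It gives 1 library per group, in which nothing can be tested, so results were also taken on replicates 1 to 3 alone.

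**Figure D1:**
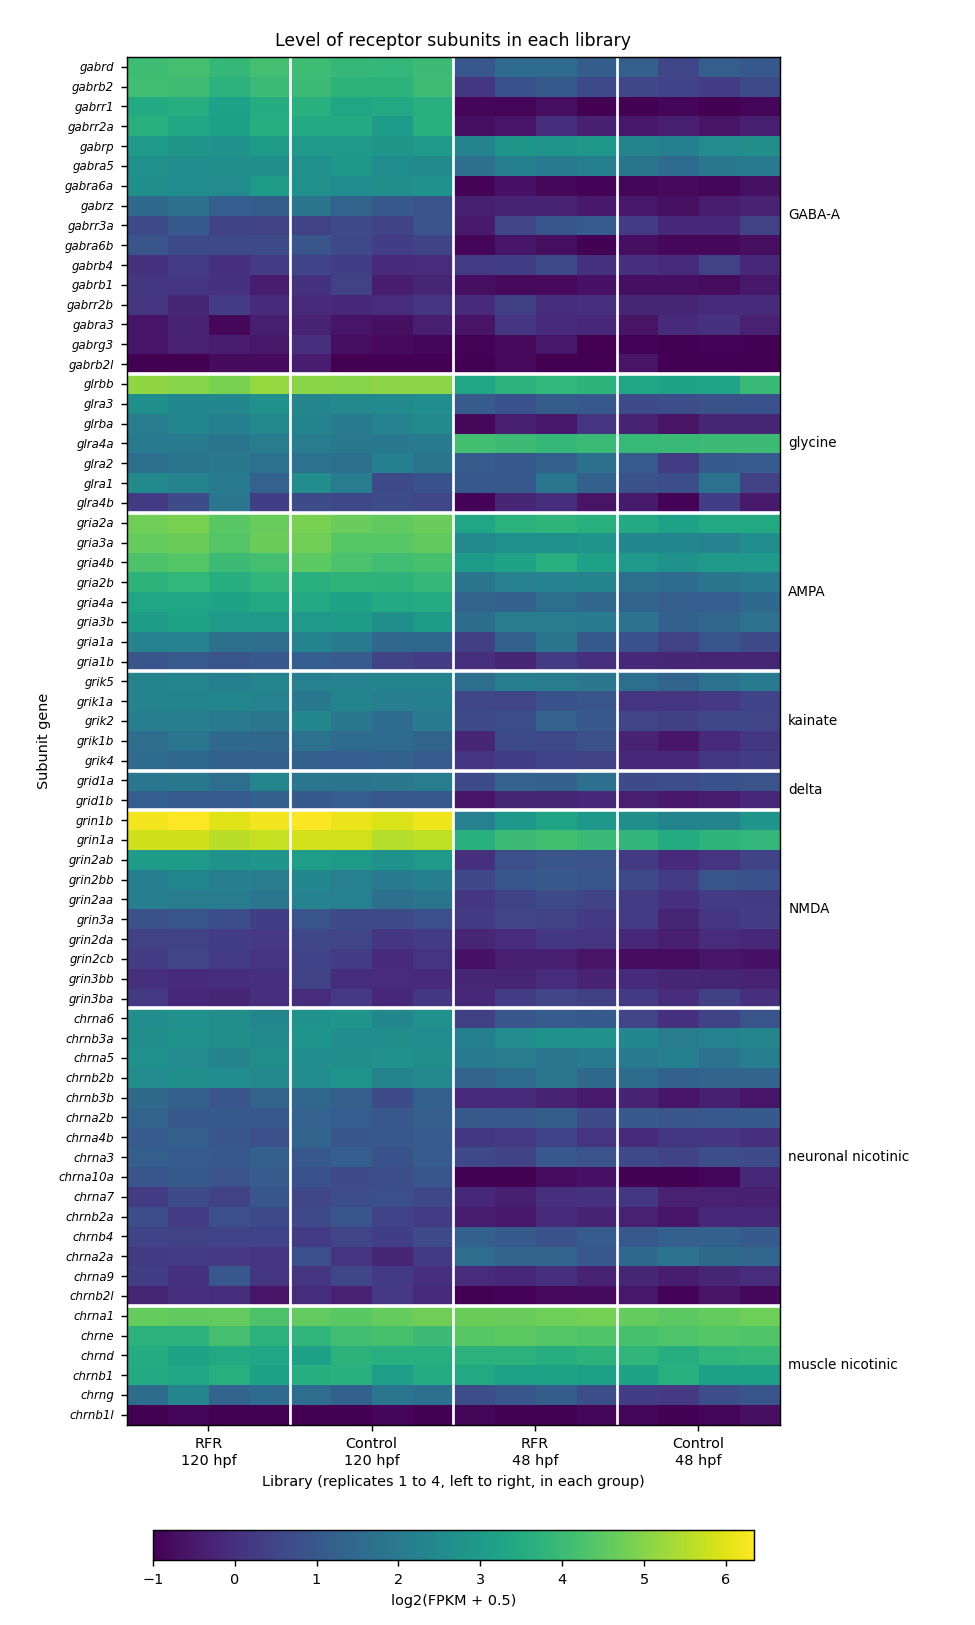
Level of 69 of the 73 subunits, as log2(FPKM + 0.5) on the colour scale, in each of the 16 libraries, with genes grouped by receptor class and libraries by group. The brightest rows are grin1b and grin1a at 120 hpf, and glra4a and the muscle subunits chrna1 and chrne are among the few rows that are bright at 48 hpf.

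The receptor genes as a whole stood higher at 120 than at 48 hpf. The summed level of the 73 subunits was 542, 554, 480 and 522 FPKM in the RFR libraries at 120 hpf and 561, 524, 475 and 522 FPKM in the Control libraries at 120 hpf. At 48 hpf it was 196, 230, 248 and 232 FPKM in RFR and 195, 178, 200 and 215 FPKM in Control. The stages did not overlap in either treatment. The ratio of 120 to 48 hpf means was 2.32 in RFR embryos and 2.65 in Control embryos, and it differed widely by class: in Control embryos 6.17 for NMDA, 5.73 for GABA-A, 3.89 for delta, 3.30 for AMPA, 3.01 for kainate, 1.81 for neuronal nicotinic, 1.70 for glycine and 0.957 for muscle nicotinic subunits.

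Among RFR embryos 49 of the 67 tested subunits were called higher at 120 hpf and 6 lower, where 36.1% and 29.2% of all genes tested were called in these directions. In Control embryos 54 were called higher and 4 lower, with 38.3% and 27.9% of all genes. The median log2 fold change of the subunits was 0.958 in RFR and 1.13 in Control embryos, against 0.0812 and 0.124 over all genes. The filter shaped these counts: 17 subunits reached 0.5 FPKM in 4 libraries only at 120 hpf, and each of them was called higher in both treatments. They were 6 GABA-A and 5 neuronal nicotinic subunits, named with their classes, and glra4b, glrba, gria1b, grid1b, grin2cb and grin2da. Among the other 50 the calls were 32 higher and 6 lower in RFR, and 37 higher and 4 lower in Control. The shares over all genes given above include 2656 genes that passed only at 120 hpf, so they are no matched baseline for these 50. The scaling of the libraries matters too, since quantile normalization shifted the median of all genes to -0.133 in RFR and -0.139 in Control embryos. Under it 38 subunits were called higher and 9 lower in RFR, and 42 higher and 9 lower in Control, where higher calls made up 82.4% of the calls instead of 93.1%. Over all genes the share of higher calls was 41.7% instead of 55.2% in RFR and 41.6% instead of 57.9% in Control. No called rise became a fall, while 11 rises in RFR and 12 in Control were no longer called. On replicates 1 to 3 alone 51 subunits were called in RFR and 55 in Control, where 13731 and 14021 of 23026 genes were called. Over all libraries 55 and 58 subunits were called, where 65.3% and 66.1% of all genes were called in either direction. The 2 stage comparisons share no library, but each shares its libraries with a comparison of RFR and Control.

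Genes of cell types moved between the stages as well, where 38.3% of all genes were called higher and 27.9% lower in Control embryos. Of the 24 neuron markers 16 were called higher and 4 lower in Control embryos at 120 hpf, with a median log2 fold change of 0.906, and their summed level was 1470 to 1500 FPKM at 120 hpf against 913 to 1090 FPKM at 48 hpf. All 13 progenitor and proliferation markers were called lower (median -1.84). Photoreceptor markers summed to 3870 to 4380 FPKM against 50.9 to 103 FPKM, and 13 of the 15 tested were called higher. The filter shaped that count, since 5 of the 16 matched averaged under 0.5 FPKM in Control embryos at 48 hpf, against 1 at 120 hpf. The part of these cell types in the receptor changes was not tested.

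**Figure D2:**
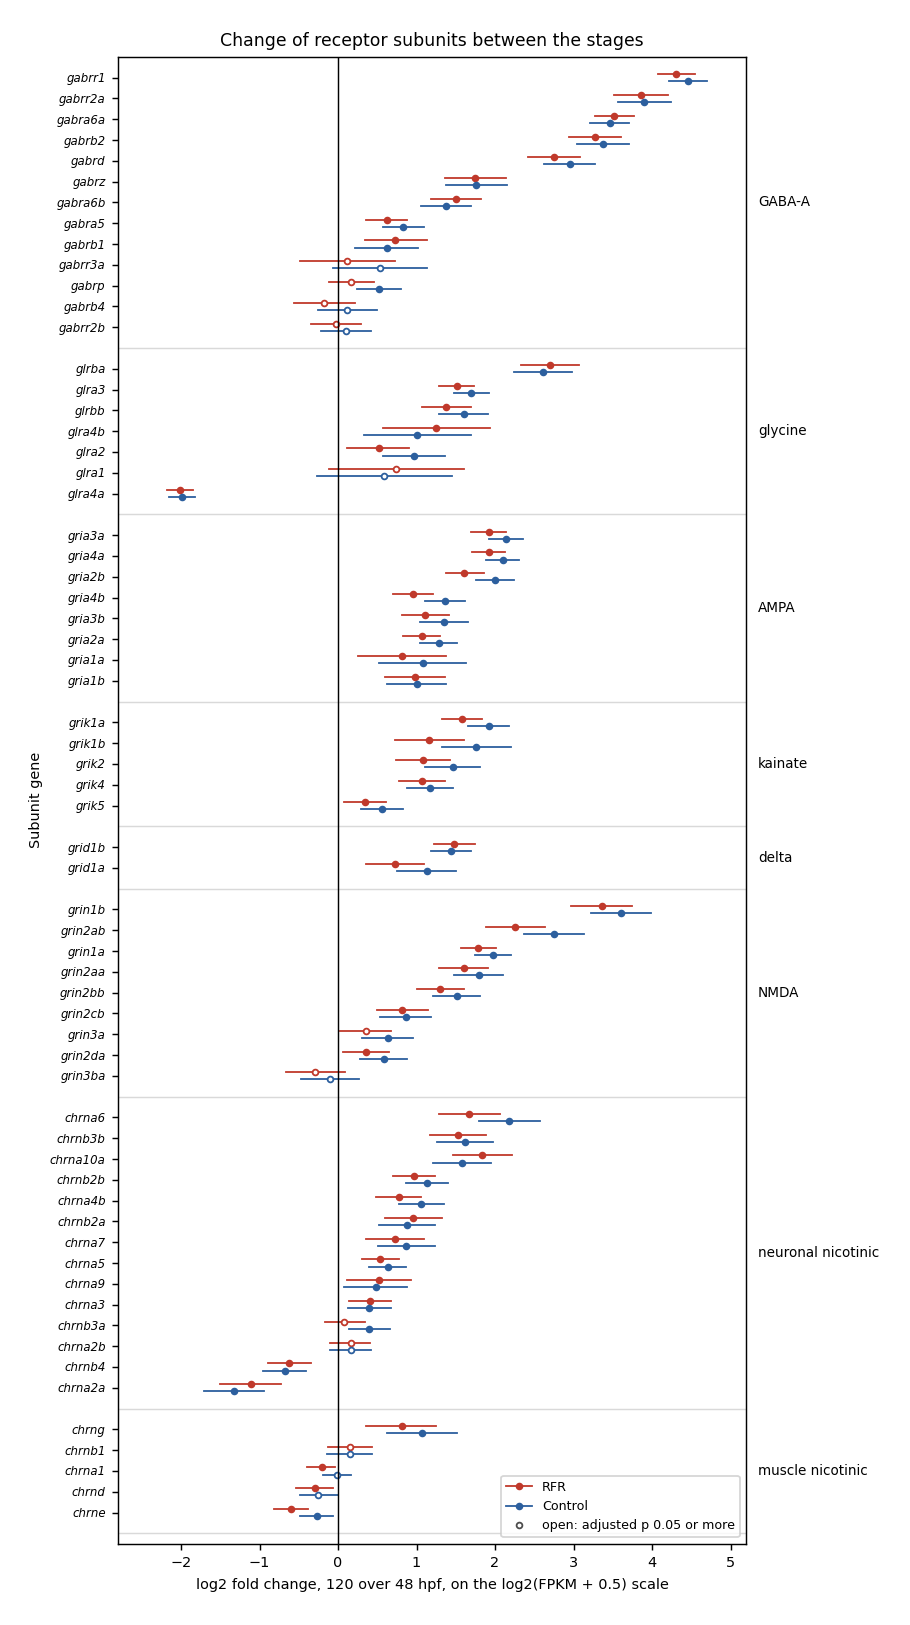
Log2 fold change of 63 of the 67 tested subunits between 120 and 48 hpf, on the log2(FPKM + 0.5) scale, in RFR embryos (red) and Control embryos (blue), with 95% confidence intervals and open points for an adjusted p of 0.05 or more. The rho subunits gabrr1 and gabrr2a lie farthest to the right, followed by the NMDA subunit grin1b in Control and gabra6a in RFR embryos. Farthest to the left is glra4a, and RFR and Control lie side by side.

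GABA-A receptors held the largest rises, those of gabrr1 and gabrr2a. Both genes, and gabra6a, passed the filter only at 120 hpf, so they could hardly fail to be called higher. GABA-A channels usually join alpha, beta and gamma or delta subunits. The rho subunits, encoded by gabrr genes, form channels of their own and are known from the mammalian retina. At 120 hpf gabrr1 was at 10.7, 11.4, 8.78 and 11.1 FPKM in RFR and 12.3, 9.51, 10.3 and 12 FPKM in Control embryos. At 48 hpf it was at 0.05, 0.05 and 0.11 FPKM and listed at 0 in the RFR libraries, and at 0.04 FPKM in 2 Control libraries and listed at 0 in the other 2. Its log2 fold change was 4.31 ± 0.113 in RFR (limma adjusted p = 1.26e-14) and 4.46 ± 0.113 in Control embryos (adjusted p = 8.3e-15). The second rho gene, gabrr2a, averaged 10.4 ± 1.42 FPKM in RFR and 10.4 ± 1.87 FPKM in Control embryos at 120 hpf, against 0.255 ± 0.161 and 0.22 ± 0.0535 FPKM at 48 hpf, a log2 fold change of 3.86 ± 0.159 in RFR and of 3.90 ± 0.159 in Control (limma adjusted p = 3.61e-12 and 3.02e-12). Another rho gene, gabrr2b, which lies next to gabrr1 in the RefSeq gene order of assembly GRCz12tu, stayed low: 0.535 ± 0.169 FPKM in RFR and 0.47 ± 0.0891 FPKM in Control embryos at 120 hpf, against 0.552 ± 0.169 and 0.402 ± 0.0377 FPKM at 48 hpf.

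The alpha 6 subunit gene gabra6a, which in mammals marks granule cells of the cerebellum, was at 5.80, 5.47, 5.38 and 7.45 FPKM in RFR and 5.99, 5.42, 5.71 and 6.20 FPKM in Control embryos at 120 hpf, against 0.03 to 0.14 FPKM in RFR and 0.05 to 0.13 FPKM in Control embryos at 48 hpf. Its log2 fold change was 3.52 ± 0.118 in RFR and 3.46 ± 0.118 in Control embryos (limma adjusted p = 2.25e-13 and 2.76e-13). Among the most abundant GABA-A subunits at 120 hpf were the delta subunit gabrd, which sits outside synapses in mammals, at 16.4 ± 1.42 FPKM in RFR and 15.1 ± 1.19 FPKM in Control, and the beta subunit gabrb2, at 15.2 ± 1.68 and 14.3 ± 1.71 FPKM. The levels of gabrd and gabrb2 differed by less than their SD. At 48 hpf the pi subunit gabrp led, at 6.20 ± 1.23 FPKM in RFR and 4.84 ± 0.772 FPKM in Control, followed by gabra5 at 3.62 ± 0.59 and 3.11 ± 0.449 FPKM. The share of gabrp in the summed GABA-A level was 6.75 ± 0.278% in RFR and 7.06 ± 0.599% in Control embryos at 120 hpf, against 27.3 ± 2.6% and 27.4 ± 1.51% at 48 hpf.

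In all, 10 of the 16 tested GABA-A subunits were called higher at 120 hpf in RFR and 13 in Control embryos, and none was called lower in this fit. Over all genes tested, 36.1% were called higher and 29.2% lower in RFR, and 38.3% and 27.9% in Control embryos. Of the GABA-A subunits called, 6 had passed the filter only at 120 hpf (gabra6a, gabra6b, gabrb1, gabrr1, gabrr2a and gabrz). Under quantile normalization gabrb4 and gabrr2b were called lower and the rise of gabrb1 was no longer called in either treatment.

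Glycine receptors exchanged their leading subunit. The alpha subunit gene glra4a fell and the beta subunit genes rose, the beta subunit being the one that ties the receptor to the scaffold protein gephyrin. At 120 hpf glra4a was at 3.59, 3.60, 3.04 and 3.78 FPKM in RFR and 3.71, 3.44, 3.41 and 3.53 FPKM in Control embryos. At 48 hpf it was at 16.9, 15.9, 14.3 and 15.5 FPKM in RFR and 14.7, 15.4, 15.9 and 16 FPKM in Control embryos. No library of 120 hpf came near any of 48 hpf. The log2 fold change was -2.01 ± 0.0773 in RFR (limma adjusted p = 1.45e-12) and -1.99 ± 0.0773 in Control embryos (adjusted p = 1.62e-12). Its share of the summed glycine receptor level was 6.45 ± 0.358% in RFR and 6.68 ± 0.1% in Control embryos at 120 hpf, against 46.1 ± 5.87% and 50.3 ± 4.58% at 48 hpf.

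The beta subunit gene glrbb was at 34.6, 31.8, 28.8 and 35.6 FPKM in RFR and 32.4, 31.8, 33.2 and 33.1 FPKM in Control embryos at 120 hpf. At 48 hpf it was at 9.59, 12.7, 14.1 and 13 FPKM in RFR and 9.38, 8.85, 9.26 and 15.3 FPKM in Control embryos. It made up 60.2 ± 2.93% and 61.9 ± 1.97% of the class at 120 hpf. Its log2 fold change was 1.38 ± 0.146 in RFR and 1.6 ± 0.146 in Control embryos (limma adjusted p = 3.89e-07 and 6.56e-08). The second beta gene, glrba, passed the filter only at 120 hpf, so it could hardly fail to be called higher. It averaged 4.40 ± 0.563 FPKM in RFR and 4.37 ± 0.581 FPKM in Control embryos at 120 hpf, against 0.272 ± 0.216 and 0.30 ± 0.102 FPKM at 48 hpf. The rise was 2.70 ± 0.174 and 2.61 ± 0.174 on the log2 scale (limma adjusted p = 1.03e-09 and 1.54e-09). Among the alpha genes glra3 averaged 5.36 ± 0.612 FPKM in RFR and 5.07 ± 0.397 FPKM in Control at 120 hpf, against 1.56 ± 0.187 and 1.21 ± 0.0975 FPKM at 48 hpf (log2 fold changes 1.51 ± 0.103 and 1.70 ± 0.103, limma adjusted p = 1.93e-09 and 4.44e-10). The ratio of glra4a to glra3 was 0.656 ± 0.0557 in RFR and 0.699 ± 0.0748 in Control embryos at 120 hpf and 10.2 ± 1.6 and 12.8 ± 0.551 at 48 hpf.

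The glycine subunit best known from mammalian spinal cord, glra1, was not called in either treatment. Its libraries held 5.23, 4.41, 3.62 and 1.98 FPKM in RFR and 5.60, 3.77, 1.03 and 1.30 FPKM in Control embryos at 120 hpf, against 1.54, 1.55, 3.16 and 1.94 FPKM and 1.27, 1.2, 2.91 and 0.87 FPKM at 48 hpf. The stages overlapped in both treatments, and among the Control libraries at 120 hpf replicates 1 and 2 lay above replicates 3 and 4. The AMPA genes gria1a and gria1b were split likewise over these Control libraries. In reverse, glra2 held 2.91 and 2.77 FPKM in replicates 1 and 2 and 4.01 and 3.02 FPKM in replicates 3 and 4. For glra1 and gria1a, replicates 1 and 2 also lay above replicates 3 and 4 in RFR embryos at 120 hpf. All genes tested showed this split on their second principal component, the axis of second largest variation. Replicates 1 to 4 of 120 hpf lay there at 17.45, 21.54, -12.87 and -14.65 in RFR and at 30.68, 10.99, -34.31 and -21.78 in Control embryos. The summed neuron markers of these Control libraries were 1470, 1500, 1480 and 1500 FPKM, and the part of cell content in the split was not tested. Over the class 5 of 7 subunits were called higher and 1 lower, in RFR and in Control alike. Of all genes tested, 36.1% were called higher and 29.2% lower in RFR, and 38.3% and 27.9% in Control embryos. Among the glycine subunits called higher, glrba and glra4b had passed the filter only at 120 hpf. Under quantile normalization the rises of glra2 in RFR and of glra4b in Control embryos were no longer called.

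**Figure D3:**
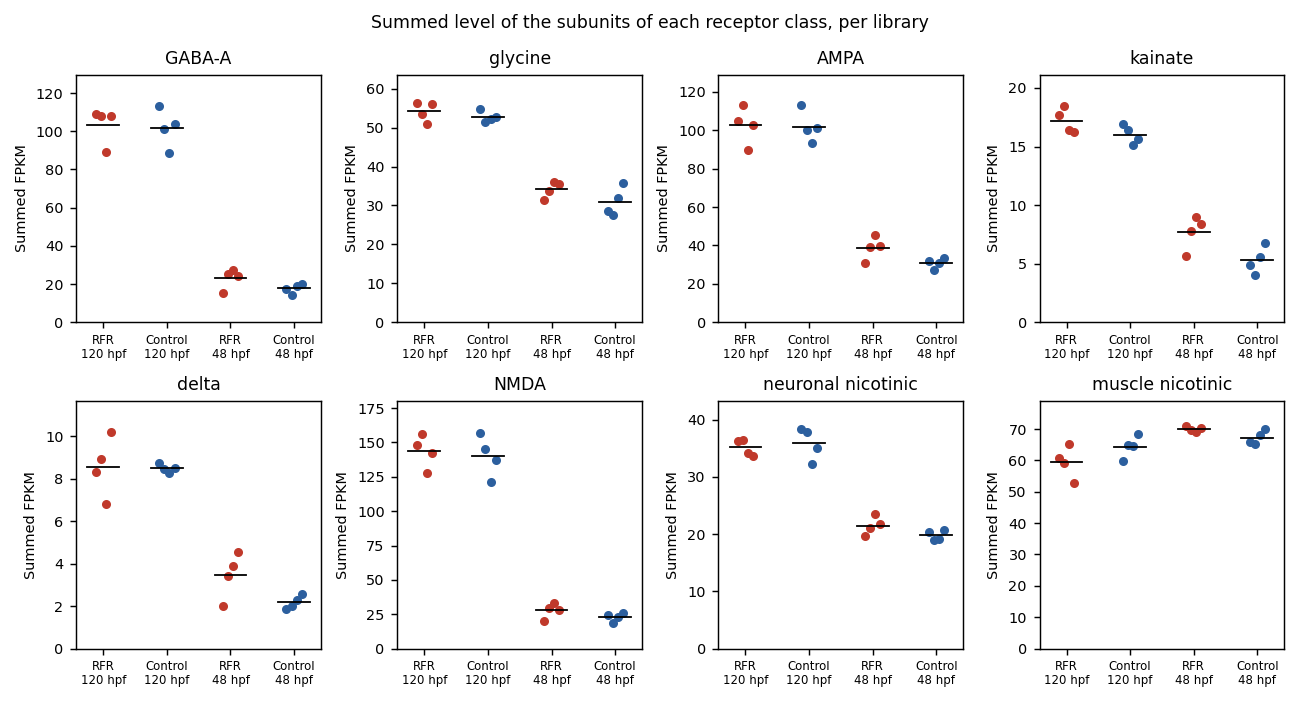
Summed FPKM of the subunits of each receptor class in each library, in panels by class, with the 4 groups on the x axis and a line at each mean. In every class but the muscle nicotinic one the libraries of 120 hpf lie above those of 48 hpf without overlap, and RFR 48 hpf replicate 1 is the lowest RFR library at 48 hpf in all classes but the muscle nicotinic one.

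All 8 AMPA subunits were called higher at 120 hpf in both treatments, where 36.1% of all genes were in RFR and 38.3% in Control embryos. Among the AMPA subunits gria1b had passed the filter only at 120 hpf, and the rise of gria1a in RFR embryos was not called under quantile normalization. AMPA receptors are the main fast glutamate receptors, and in mammals the subunit encoded by Gria2 keeps the channel closed to calcium. The gria2a gene was the most abundant of the class at each stage, at 25.3 ± 2.99 FPKM in RFR and 25.2 ± 2.25 FPKM in Control embryos at 120 hpf and 11.9 ± 1.72 and 10.1 ± 0.957 FPKM at 48 hpf. Its share of the class was 24.6 ± 0.761% and 24.8 ± 0.347% at 120 hpf, against 30.6 ± 0.954% and 32.8 ± 1.2% at 48 hpf. Next at 120 hpf was gria3a, at 23.8 ± 2.44 FPKM in RFR and 22.9 ± 2.41 FPKM in Control embryos. That is within the SD of gria2a in RFR but not in Control embryos. Second at 48 hpf was gria4b, at 9.14 ± 1.78 FPKM in RFR and 6.95 ± 0.46 FPKM in Control embryos.

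The genes gria3a and gria4a rose by about the same amount. For gria3a the libraries held 24.1, 25.6, 20.3 and 25.3 FPKM in RFR and 26.3, 21.2, 21.2 and 22.8 FPKM in Control embryos at 120 hpf, against 5.09, 5.96, 6.05 and 6.65 FPKM in RFR and 4.71, 4.64, 4.31 and 5.55 FPKM in Control embryos at 48 hpf. Its log2 fold change was 1.92 ± 0.104 in RFR and 2.14 ± 0.104 in Control embryos (limma adjusted p = 1.2e-10 and 2.94e-11). For gria4a the changes were 1.92 ± 0.1 and 2.10 ± 0.1 (limma adjusted p = 7.54e-11 and 2.4e-11) and for gria2b 1.61 ± 0.115 and 2.0 ± 0.115 (limma adjusted p = 3.47e-09 and 2.45e-10). The ratio of gria2a to gria2b was 1.94 ± 0.135 in RFR and 1.93 ± 0.269 in Control embryos at 120 hpf and 3.01 ± 0.164 and 3.48 ± 0.398 at 48 hpf.

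Kainate and delta subunits, which are less abundant glutamate receptor families, were likewise all called higher at 120 hpf in both treatments, 5 of 5 and 3 of 3. The share of higher calls over all genes tested was 36.1% in RFR and 38.3% in Control embryos. Kainate receptors tune transmitter release and excitability, and delta receptors organise synapses. In RFR embryos grik1a rose by 1.58 ± 0.122, grik1b by 1.16 ± 0.205 and grik2 by 1.08 ± 0.163 on the log2 scale (limma adjusted p = 8.91e-09, 0.000104 and 2.12e-05). In Control embryos the values were 1.92 ± 0.122, 1.76 ± 0.205 and 1.46 ± 0.163 (limma adjusted p = 7.93e-10, 1.14e-06 and 7.58e-07). The subunit grik5, which joins other kainate subunits, held 25.5 ± 1.81% of the class level in RFR and 26.8 ± 1.95% in Control embryos at 120 hpf, against 44.2 ± 4.68% and 52.4 ± 1.26% at 48 hpf. Its rise was not called under quantile normalization in either treatment.

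Of the delta genes, grid1b had passed the filter only at 120 hpf. Its log2 fold change was 1.48 ± 0.124 in RFR and 1.44 ± 0.124 in Control embryos (limma adjusted p = 2.5e-08 and 3.47e-08). For grid1a it was 0.73 ± 0.175 and 1.13 ± 0.175 (limma adjusted p = 0.0017 and 2.94e-05). The rise of grid1a in RFR embryos was 0.39 and no longer called under quantile normalization (limma adjusted p = 0.0626), while its adjusted p ranged from 0.000293 to 0.00767 when 1 library was left out.

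NMDA receptors gave the most abundant subunits of all 73 genes at 120 hpf. At 48 hpf chrna1, chrne and glra4a had higher means, and in Control embryos chrnd as well. Every NMDA receptor holds the obligatory GluN1 subunit, encoded by grin1a and grin1b, together with others that set its kinetics. At 120 hpf grin1b was at 73.0, 80.6, 62.4 and 73.3 FPKM in RFR and 78.8, 68.7, 60.0 and 70.2 FPKM in Control embryos. At 48 hpf it was at 4.05, 6.98, 9.28 and 7.03 FPKM in RFR and 5.66, 4.45, 4.49 and 6.53 FPKM in Control embryos. Replicate 1 was the lowest of the RFR libraries at 48 hpf and lay below all Control libraries of that stage. The log2 fold change between the stages was 3.36 ± 0.181 in RFR and 3.61 ± 0.181 in Control embryos (limma adjusted p = 1.12e-10 and 4.49e-11).

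The other copy, grin1a, averaged 52.6 ± 3.69 FPKM in RFR and 52.1 ± 5.4 FPKM in Control embryos at 120 hpf, against 15 ± 2.07 and 12.9 ± 1.4 FPKM at 48 hpf (log2 fold changes 1.78 ± 0.107 and 1.97 ± 0.107, limma adjusted p = 4.41e-10 and 1.2e-10). The ratio of grin1b to grin1a was 1.37 ± 0.0717 in RFR and 1.33 ± 0.094 in Control embryos at 120 hpf and 0.447 ± 0.089 and 0.408 ± 0.0505 at 48 hpf, so the order of the copies differed between the stages in every library.

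In mammals the GluN2B subunit leads before birth and GluN2A is added as synapses mature. Of the zebrafish GluN2A genes grin2ab was at 7.62, 7.67, 6.37 and 6.73 FPKM in RFR and 8.11, 7.45, 6.18 and 7.32 FPKM in Control embryos at 120 hpf, against 0.52, 1.24, 1.40 and 1.35 FPKM in RFR and 0.68, 0.44, 0.60 and 0.93 FPKM in Control embryos at 48 hpf. It rose by 2.26 ± 0.178 in RFR and 2.75 ± 0.178 in Control embryos on the log2 scale (limma adjusted p = 1.19e-08 and 1.04e-09). The ratio of grin2ab to the GluN2B gene grin2bb was 1.74 ± 0.126 in RFR and 1.78 ± 0.0487 in Control embryos at 120 hpf and 0.798 ± 0.19 and 0.593 ± 0.11 at 48 hpf. For the second GluN2A gene, grin2aa, the ratio to grin2bb was 0.903 ± 0.086 and 0.857 ± 0.109 at 120 hpf and 0.643 ± 0.047 and 0.593 ± 0.0834 at 48 hpf. Of the 9 tested NMDA subunits 7 were called higher in RFR and 8 in Control embryos and none lower in this fit. Over all genes tested, 36.1% were called higher and 29.2% lower in RFR, and 38.3% and 27.9% in Control embryos. The NMDA subunits called higher included grin2cb and grin2da, which had passed the filter only at 120 hpf. Under quantile normalization grin3ba was called lower (-0.76 in RFR and -0.63 in Control embryos). There grin2da was no longer called in either treatment and grin3a no longer in Control.

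Neuronal nicotinic subunits moved in both directions. Of the 14 tested, 10 were called higher at 120 hpf in RFR and 11 in Control embryos, and 2 lower in each. Over all genes tested, 36.1% were called higher and 29.2% lower in RFR, and 38.3% and 27.9% in Control embryos. Of the neuronal nicotinic subunits called higher, 5 had passed the filter only at 120 hpf (chrna10a, chrna7, chrna9, chrnb2a and chrnb3b). Under quantile normalization the rises of chrna3, chrna7 and chrna9 were no longer called in either treatment. The same held for chrna4b in RFR and for chrnb2a and chrnb3a in Control embryos, while chrna2b was called lower in both. The alpha 6 gene chrna6, whose product in mammals is found in dopamine neurons and in retinal ganglion cells, was at 5.57, 6.02, 5.62 and 4.63 FPKM in RFR and 6.16, 6.69, 4.85 and 6.01 FPKM in Control embryos at 120 hpf. At 48 hpf it was at 0.80, 1.45, 1.72 and 1.63 FPKM in RFR and 0.95, 0.54, 0.91 and 1.36 FPKM in Control embryos. The log2 fold change was 1.67 ± 0.182 in RFR and 2.18 ± 0.182 in Control embryos (limma adjusted p = 5.69e-07 and 2.41e-08). For chrnb3b, an accessory beta subunit, it was 1.53 ± 0.17 and 1.62 ± 0.17 (limma adjusted p = 7.03e-07 and 3.46e-07). For chrna10a, known from hair cells in mammals, it was 1.84 ± 0.175 and 1.58 ± 0.175 (limma adjusted p = 1.13e-07 and 6.38e-07), with 1.49 ± 0.165 FPKM in RFR and 1.26 ± 0.126 FPKM in Control embryos at 120 hpf and a listed value of 0 in 2 libraries of each group at 48 hpf.

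The 2 neuronal subunits called lower in the main fit were chrna2a and chrnb4. The alpha 2 gene chrna2a was at 0.69, 0.72, 0.67 and 0.57 FPKM in RFR and 1.22, 0.60, 0.36 and 0.68 FPKM in Control embryos at 120 hpf, against 2.61, 2.04, 2.02 and 1.5 FPKM in RFR and 2.37, 2.94, 2.39 and 2.19 FPKM in Control embryos at 48 hpf. It fell by 1.11 in RFR and by 1.33 in Control embryos on the log2 scale (SE 0.181 in each, limma adjusted p = 4.64e-05 and 6.83e-06). The beta 4 gene chrnb4, at 0.883 ± 0.00957 FPKM in RFR and 0.90 ± 0.183 FPKM in Control embryos at 120 hpf and 1.64 ± 0.291 and 1.74 ± 0.205 FPKM at 48 hpf, fell by 0.62 and 0.68 (SE 0.128 in each, limma adjusted p = 0.000467 and 0.000181). Its neighbour in the RefSeq gene order is chrna3, with which it forms the receptor of autonomic ganglia in mammals. That gene stood at 1.74 ± 0.161 FPKM in RFR and 1.57 ± 0.218 FPKM in Control embryos at 120 hpf, against 1.2 ± 0.258 and 1.07 ± 0.124 FPKM at 48 hpf.

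The most abundant neuronal nicotinic subunit at 48 hpf was chrnb3a, at 5.44 ± 1.06 FPKM in RFR and 4.33 ± 0.396 FPKM in Control embryos, followed by the accessory alpha subunit chrna5, at 3.51 ± 0.275 and 3.56 ± 0.533 FPKM, and by chrnb2b, at 2.52 ± 0.469 and 2.16 ± 0.246 FPKM. At 120 hpf chrna6, chrnb3a, chrna5 and chrnb2b lay between 5.34 and 5.93 FPKM in both treatments, and neighbours in the order of their means differed by less than the larger of their 2 SDs.

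Muscle nicotinic subunits were the most abundant class at 48 hpf and the one whose summed level was not higher at 120 hpf. It was 60.9, 59.3, 65.1 and 52.8 FPKM in RFR and 59.7, 64.9, 64.6 and 68.3 FPKM in Control embryos at 120 hpf, against 70.9, 69.8, 69.1 and 70.4 FPKM in RFR and 65.7, 65.3, 68.1 and 70.0 FPKM in Control embryos at 48 hpf. The RFR libraries of the stages did not overlap, and the Control libraries did. The alpha subunit gene chrna1, which binds acetylcholine, made up 37.6 ± 1.58% of the class in RFR and 37.0 ± 2.95% in Control embryos at 120 hpf and 37.1 ± 1.72% and 35.5 ± 1.6% at 48 hpf.

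In mammals the muscle receptor of the fetus holds a gamma subunit, and an epsilon subunit takes its place as the junction matures. In these embryos the epsilon gene chrne was the more abundant at either stage. It was at 12.7, 12.6, 17.4 and 12.8 FPKM in RFR and 13.9, 16.6, 17.9 and 16 FPKM in Control embryos at 120 hpf, against 21.2, 21.8, 20.8 and 20.1 FPKM in RFR and 18.0, 19.4, 20.7 and 19.8 FPKM in Control embryos at 48 hpf. The log2 fold change of chrne was -0.60 ± 0.101 in RFR (limma adjusted p = 6.93e-05) and -0.27 ± 0.101 in Control embryos (adjusted p = 0.027). The call in Control was lost on replicates 1 to 3 alone (-0.26, limma adjusted p = 0.105), and its adjusted p ranged from 0.016 to 0.0986 when 1 library was left out. It passed 0.05 without Control 120 hpf replicate 1, Control 48 hpf replicate 3 or Control 48 hpf replicate 4.

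The gamma gene chrng was at 2.55, 4.61, 2.03 and 2.48 FPKM in RFR and 2.57, 1.92, 3.21 and 2.68 FPKM in Control embryos at 120 hpf, against 1.17, 1.47, 1.74 and 1.2 FPKM in RFR and 0.76, 0.66, 1.17 and 1.36 FPKM in Control embryos at 48 hpf. Its log2 fold change was 0.81 ± 0.21 in RFR and 1.07 ± 0.21 in Control embryos (limma adjusted p = 0.00299 and 0.000295), and under quantile normalization the value in RFR was 0.43 and no longer called (adjusted p = 0.0974). The ratio of chrng to chrne was 0.22 ± 0.105 in RFR and 0.162 ± 0.0319 in Control embryos at 120 hpf and 0.0665 ± 0.0125 and 0.0504 ± 0.0154 at 48 hpf.

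The remaining muscle subunits moved little. For chrnd the log2 fold change was -0.30 ± 0.114 in RFR (limma adjusted p = 0.0297) and -0.25 ± 0.114 in Control embryos (adjusted p = 0.0686). The RFR call was lost when any of RFR 120 hpf replicates 2 and 4 or RFR 48 hpf replicates 1, 2 and 4 was left out (adjusted p up to 0.093) and on replicates 1 to 3 (0.136). In Control chrnd was called under quantile normalization (-0.28, adjusted p = 0.0389), under median-ratio scaling (-0.37, adjusted p = 0.011) and without Control replicate 2 of either stage. For chrna1 the change was -0.21 ± 0.0831 in RFR (limma adjusted p = 0.0334) and -0.01 ± 0.0831 in Control embryos (adjusted p = 0.92). The RFR call was lost without RFR 120 hpf replicate 4 (-0.14, adjusted p = 0.13), without RFR 48 hpf replicate 3 or 4, on replicates 1 to 3 (-0.11, adjusted p = 0.216), under quantile normalization (-0.15, adjusted p = 0.104) and with the 2 groups alone in the fit (-0.21, adjusted p = 0.0522). For chrnb1 it was 0.15 ± 0.132 in each treatment (limma adjusted p = 0.337 in RFR and 0.347 in Control). The median over the 5 tested muscle subunits was -0.21 in RFR and -0.01 in Control embryos, and the Control median turned positive under quantile normalization. The summed skeletal muscle markers lay at 68900 to 74000 FPKM in RFR and 66100 to 75000 FPKM in Control embryos at 120 hpf and at 65500 to 73100 and 64900 to 68400 FPKM at 48 hpf.

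The comparison of RFR with Control at 48 hpf asks whether the exposure altered these genes at its end. With limma no subunit was called, where 0.00434% of all genes were. At an unadjusted p under 0.05 there were 15 subunits, all with the higher mean in RFR, where 7.30% of all genes reached that p in this direction and 9.47% in either. These 15 were 4 AMPA, 4 kainate, 2 delta and 2 neuronal nicotinic subunits and 1 each of the GABA-A, glycine and NMDA classes. The fold change was positive in 54 of 67 subunits (80.6%), against 60.5% of all genes, and its median was 0.207 on the log2 scale, against 0.0426 over all genes. The number with an unadjusted p under 0.05 was 8 under quantile normalization and 9 under median-ratio scaling, with medians of 0.139 and 0.161. Over all genes 1040 of 23026 and 1048 of 22921 reached it with RFR higher, against 1680 in the main fit. Their medians were 0.000887 and -0.00551. With 1 library left out, the number of subunits with an unadjusted p under 0.05 ranged from 8 to 27. It was 27 without RFR replicate 1, 8 without RFR replicate 3 and 9 without RFR replicate 4 or Control replicate 2. The counts of all genes with RFR higher were 2446, 1111, 1306 and 1220 of 23026, in that order. On replicates 1 to 3 alone limma called 0 subunits, 13 had an unadjusted p under 0.05 and the median was 0.227. Over all genes 1315 of 23026 reached that p with RFR higher, and the median was 0.0387.

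By class the median log2 fold change at 48 hpf was highest in the delta (0.45) and kainate (0.44) subunits and was 0.32 in AMPA, 0.22 in glycine, 0.21 in NMDA, 0.19 in GABA-A, 0.11 in muscle nicotinic and 0.09 in neuronal nicotinic subunits. It was positive in all 8 AMPA, 5 kainate, 3 delta and 9 NMDA subunits tested, in 13 of 16 GABA-A, 5 of 7 glycine, 8 of 14 neuronal nicotinic and 3 of 5 muscle nicotinic subunits. None of these class medians changed sign under quantile normalization or with 1 library left out, but several moved by over 1.5 times. The GABA-A median ranged from 0.0825 without RFR replicate 3 to 0.299 without RFR replicate 1 and also moved without Control replicate 2. The neuronal nicotinic median ranged from 0.034 without RFR replicate 3 to 0.136 without RFR replicate 2 and moved without RFR replicate 4 or Control replicate 2. The delta median was 0.295 without RFR replicate 4, the glycine one 0.145 without Control replicate 2 and the muscle nicotinic one 0.0712 without Control replicate 1. The differences between classes were not tested. Among the cell type markers, 24 of 24 neuron markers also had the higher mean in RFR (median 0.28, 19 of them at an unadjusted p under 0.05), as did 10 of 14 glial markers (median 0.212) and 11 of 15 photoreceptor markers (median 0.275). Progenitor markers had a median of -0.268, with 3 of 13 positive. The part of these cell types in the receptor values was not tested.

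**Figure D4:**
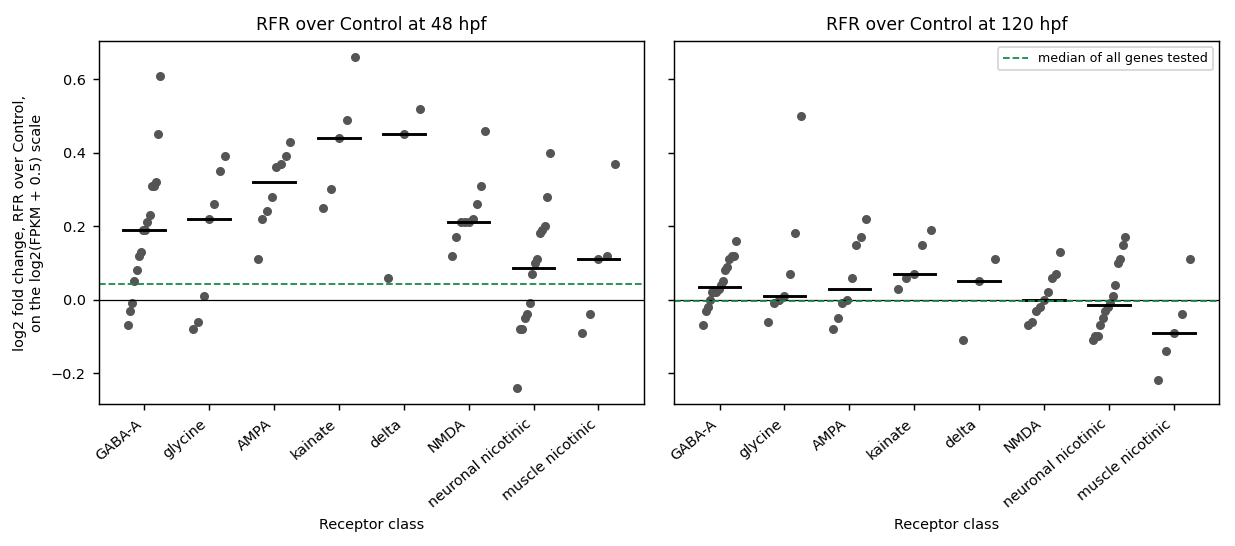
Log2 fold change of RFR over Control for each tested subunit, on the log2(FPKM + 0.5) scale, by receptor class at 48 hpf (left) and at 120 hpf (right), with a black bar at the class median and a dashed line at the median of all genes. At 48 hpf all AMPA, kainate, delta and NMDA points lie above the dashed line at 0.0426, and at 120 hpf the class medians lie between -0.09 and 0.07.

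The 10 subunits with the smallest p at 48 hpf all encode glutamate receptors. The kainate gene grik1a was at 0.98, 0.94, 1.29 and 1.41 FPKM in RFR and 0.59, 0.57, 0.66 and 0.89 FPKM in Control embryos. Its groups did not overlap, and the log2 fold change was 0.49 ± 0.122, with a 95% confidence interval of 0.23 to 0.75 (limma adjusted p = 0.251, unadjusted 0.00102). Its paralog grik1b was at 0.36, 1.06, 1.04 and 1.25 FPKM in RFR and 0.32, 0.18, 0.41 and 0.63 FPKM in Control embryos (0.66 ± 0.205, limma adjusted p = 0.304). Here RFR replicate 1 lay among the Control libraries and the other 3 above all of them. The kainate gene grik2 was at 1.09, 1.2, 2.0 and 1.59 FPKM in RFR and 0.94, 0.80, 1.02 and 0.95 FPKM in Control embryos, again without overlap (0.44 ± 0.163, limma adjusted p = 0.377).

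Of the AMPA subunits gria4b was at 7.45, 8.83, 11.7 and 8.65 FPKM in RFR and 7.13, 6.27, 7.13 and 7.28 FPKM in Control embryos (0.36 ± 0.12, limma adjusted p = 0.339) and did not overlap. For gria2b the libraries held 3.07, 4.12, 4.26 and 4.35 FPKM in RFR and 2.69, 2.44, 3.11 and 3.50 FPKM in Control embryos (0.37 ± 0.115, limma adjusted p = 0.306). For gria3b they held 2.53, 3.73, 3.85 and 3.47 FPKM in RFR and 2.96, 1.91, 2.18 and 2.87 FPKM in Control embryos (0.39 ± 0.141, limma adjusted p = 0.374). In both genes RFR replicate 1 alone fell inside the Control range. The value of gria3a was 0.28 ± 0.104 (limma adjusted p = 0.385).

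The delta gene grid1a and the NMDA gene grin2ab had the same arrangement. With 1.14 FPKM for grid1a and 0.52 for grin2ab, RFR replicate 1 lay inside the Control ranges of 1.12 to 1.35 and 0.44 to 0.93 FPKM. The RFR replicates 2 to 4 lay above them, at 1.88 to 2.73 and 1.24 to 1.40 FPKM. The log2 fold changes were 0.45 ± 0.175 for grid1a and 0.46 ± 0.178 for grin2ab (limma adjusted p = 0.41 and 0.399). Groups without overlap were found in 3 of 67 subunits with RFR higher (4.48%, against 3.0% of all genes) and in 0 with RFR lower (1.27% of all genes).

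**Figure D5:**
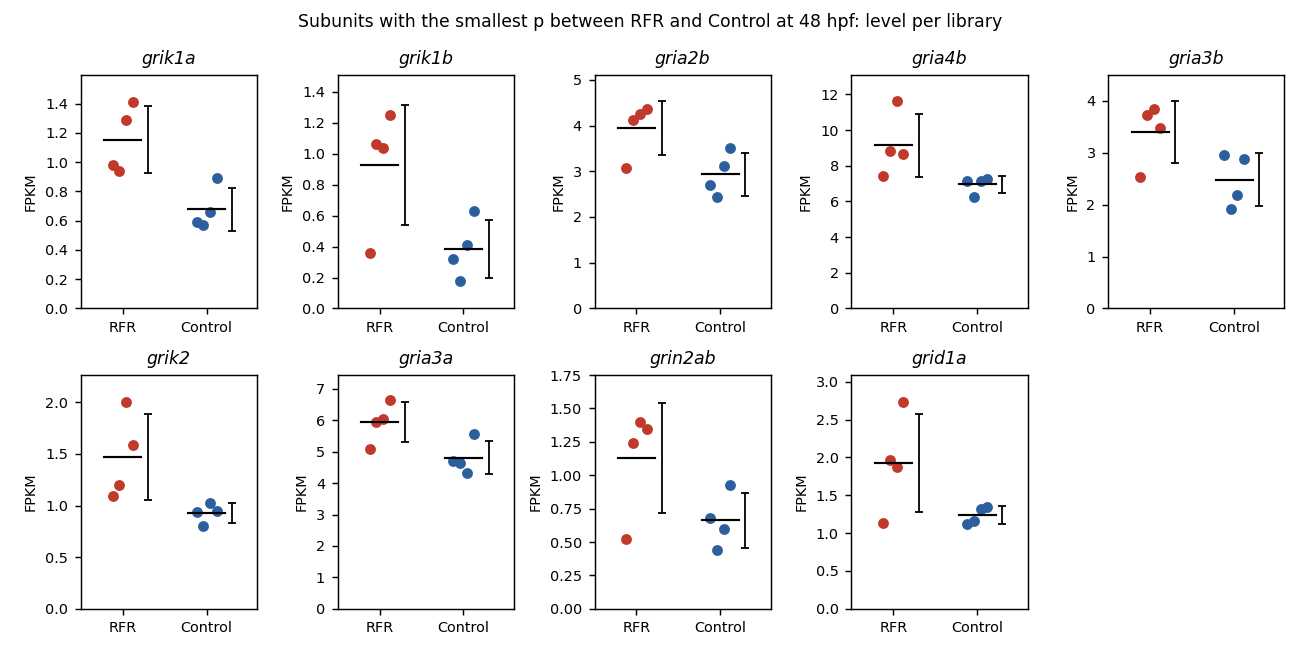
FPKM of 9 of the 10 subunits with the smallest p between RFR and Control at 48 hpf, in each library, with a line at the mean and a bar for the SD (n = 4). Among them grik1a, gria4b and grik2 show no overlap of the groups, and in grik1b, grin2ab and grid1a a low RFR point, replicate 1, lies within the Control range.

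The count of subunits called at 48 hpf changed only when that library was left out. Without RFR 48 hpf replicate 1 limma called 5 subunits, all higher in RFR, where 1.52% of all genes were called in that direction and 1.69% in either. They included grik1b (0.89 ± 0.166, adjusted p = 0.0227), grin2ab (0.67 ± 0.135, adjusted p = 0.0297), gria2b (0.48 ± 0.107, adjusted p = 0.0385) and gabrp (0.46 ± 0.108, adjusted p = 0.0446). The last is the pi subunit named above for its level at 48 hpf. Over the other settings the adjusted p of these genes ranged from 0.0771 for grik1b to 0.777 for grin2ab. Without any other library no subunit was called. In replicate 1 the summed neuron markers were 1040 FPKM and the summed photoreceptor markers 70.6 FPKM, while the other RFR libraries held 1220 to 1230 and 130 to 143 FPKM and the Control libraries 913 to 1090 and 50.9 to 103 FPKM. The arrangement was not limited to these genes. On the first principal component of all genes tested (83.1% of the variation), which separated the stages, RFR replicate 1 lay at -100.51. The other RFR libraries of 48 hpf lay at -86.41, -76.93 and -86.75, and the Control libraries at -92.62, -101.47, -97.72 and -91.16. Libraries of 120 hpf lay at 86.16 to 98.94. The part of those values in the result was not tested.

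None of the muscle subunits was near a call at 48 hpf. The log2 fold changes were 0.12 ± 0.0831 for chrna1, 0.11 ± 0.101 for chrne, 0.37 ± 0.21 for chrng, -0.09 ± 0.114 for chrnd and -0.04 ± 0.132 for chrnb1 (limma adjusted p from 0.631 to 0.966).

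At 120 hpf, 72 h after the exposure ended, limma again called no subunit, and no gene at all was called (0%). An unadjusted p under 0.05 was reached by 1 subunit, chrne, with the lower mean in RFR, where 2.35% of all genes reached it in that direction and 4.13% in either. Its libraries, given above, overlapped, and RFR replicate 3 lay far above the other RFR libraries. The log2 fold change of chrne was -0.22 ± 0.101 (limma unadjusted p = 0.0456, adjusted p = 1). Positive fold changes were seen in 41 of 67 subunits, against 48.9% of all genes, and the median was 0.0185, against -0.00346 over all genes. With 1 library left out that median ranged from -0.0237 without Control replicate 3 to 0.0541 without RFR replicate 3, and it was also negative without RFR replicate 2 or Control replicate 4. No subunit had groups without overlap (0.886% of all genes with RFR higher, 1.22% with RFR lower). On replicates 1 to 3 the median was 0.0286 and no subunit reached an unadjusted p under 0.05.

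The other subunits with the smallest p at 120 hpf had log2 fold changes of 0.19 ± 0.138 for grik4, -0.14 ± 0.114 for chrnd, 0.50 ± 0.406 for glra1, 0.22 ± 0.178 for gria1b, 0.15 ± 0.122 for grik1a, 0.15 ± 0.141 for gria3b, -0.09 ± 0.0831 for chrna1, 0.17 ± 0.175 for chrna10a and -0.10 ± 0.11 for chrna5 (limma adjusted p = 1 for each). The 95% confidence interval was -0.11 to 0.41 for grik1a and -0.36 to 1.36 for glra1. The muscle subunits chrng and chrnb1 stood at 0.11 ± 0.21 and -0.04 ± 0.132.

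The difference between the RFR effects of the 2 stages, taken as the effect at 120 hpf minus that at 48 hpf, was called for no subunit and for no gene (0%). An unadjusted p under 0.05 was reached by 4 subunits, all with a negative difference, where 4.84% of all genes reached it in that direction and 6.84% in either. Among them were gria4b (-0.41 ± 0.169), gria2b (-0.39 ± 0.163) and chrne (-0.33 ± 0.142), with limma adjusted p of 0.672, 0.672 and 0.682. The AMPA genes were named for their small p at 48 hpf, and chrne also had one of the smallest p at 120 hpf. Those effects enter the difference. The number of subunits at an unadjusted p under 0.05 was 13 without RFR 48 hpf replicate 1 and 10 without Control 48 hpf replicate 4. Over all genes 2399 and 1886 of 23026 reached it in either direction, against 1575 in the main fit. The number of subunits was 2 without RFR 120 hpf replicate 3, RFR 48 hpf replicate 3 or Control 48 hpf replicate 1 or 2. There the counts of all genes were 1594, 1344, 1242 and 1469, in that order. The median difference over the subunits was -0.189, against -0.0531 over all genes. It was -0.287 without RFR 48 hpf replicate 1, -0.115 without RFR 48 hpf replicate 3 and -0.117 without Control 48 hpf replicate 2. For the other muscle subunits it was -0.20 ± 0.117 (chrna1), 0.00 ± 0.187 (chrnb1), -0.05 ± 0.162 (chrnd) and -0.26 ± 0.298 (chrng).

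Several subunit genes lie side by side in the genome. In the RefSeq gene order of assembly GRCz12tu, used here for order only, 15 pairs of subunits are direct neighbours or have 1 gene between them, 12 of them direct. In some pairs both genes were high at 120 hpf. Beside gria2a lies glrba, beside gria2b lies glrbb and beside gabra6a lies gabrb2, and all 6 had higher means at 120 hpf in both treatments. The stage change was positive in 86.6% of all tested subunits in RFR and in 89.6% in Control embryos. Whether neighbours rose more often than other subunits was not tested. In others the levels differed: at 120 hpf gabra5 averaged 5.77 ± 0.197 FPKM in RFR and 5.92 ± 0.832 FPKM in Control and its neighbour gabrg3 0.227 ± 0.0591 and 0.18 ± 0.214 FPKM. The same held for chrna6, at 5.46 ± 0.589 and 5.93 ± 0.775 FPKM, and its neighbour chrnb2a, at 1.04 ± 0.234 and 1.01 ± 0.301 FPKM.

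Genes that work beside these receptors were followed in 6 lists. Over all genes tested, 38.3% were called higher and 27.9% lower at 120 hpf in Control embryos, and 36.1% and 29.2% in RFR embryos. At inhibitory synapses 12 of 14 tested genes of GABA and glycine synthesis, release and uptake were called higher at 120 hpf in Control embryos and 1 lower (median log2 fold change 1.55). The transaminase abat averaged 59.9 ± 7.38 FPKM at 120 hpf against 7.22 ± 1.06 FPKM at 48 hpf (2.97 ± 0.149), the GABA transporter slc6a1a 25 ± 2.05 against 3.73 ± 0.873 FPKM (2.61 ± 0.157) and the glutamate decarboxylase gad1b 81.2 ± 3.47 against 13.1 ± 1.65 FPKM (2.59 ± 0.115). Of 13 genes of the inhibitory postsynapse 9 were called higher and 1 lower (median 1.12), led by the collybistin gene arhgef9b at 23.5 ± 0.262 against 5.21 ± 0.579 FPKM (2.08 ± 0.084). In RFR embryos 11 presynaptic genes were called higher and 1 lower, and 9 postsynaptic genes higher and 1 lower.

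At glutamate synapses 16 of 19 genes of release and uptake were called higher and 1 lower (median 1.57). Of 45 genes of auxiliary subunits and scaffolds 41 were called higher and 0 lower (median 1.17). The filter shaped these counts, since genes that reached it only at 120 hpf could hardly fail to rise. Of the matched genes, 9 of 19 and 16 of 49 averaged under 0.5 FPKM in Control embryos at 48 hpf, against 0 and 4 at 120 hpf. The glutamate transporter slc1a2a averaged 11.2 ± 0.236 FPKM at 120 hpf against 0.03 ± 0.0476 FPKM at 48 hpf in Control embryos (4.47 ± 0.116), and syngap1b, a regulator held at the postsynaptic scaffold, 8.17 ± 0.448 against 0.805 ± 0.185 FPKM (2.74 ± 0.132). Of 6 cholinergic genes all 6 were called higher (median 1.09), among them chata, which makes acetylcholine, at 6.87 ± 1.57 against 2.35 ± 0.197 FPKM (1.35 ± 0.138), and ache, which breaks it down, at 56.4 ± 2.08 against 22.5 ± 2.11 FPKM (1.31 ± 0.0748). Of 10 genes of the neuromuscular junction and of nicotinic receptor chaperones 6 were called higher and 2 lower (median 0.376). The chaperone gene ric3a averaged 2.65 ± 0.258 against 0.198 ± 0.121 FPKM (2.19 ± 0.176), and with so low a level at 48 hpf it could hardly fail to rise. In contrast, tmem35 averaged 26.7 ± 2.11 against 47.4 ± 3.23 FPKM (-0.82 ± 0.0818). Each named gene had a limma adjusted p between 1.05e-14 and 2.67e-07. In RFR embryos the counts were 15 higher and 1 lower, 39 and 0, 4 and 0, and 4 and 2.

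Between RFR and Control limma called no gene of these lists at either stage. At 48 hpf the median log2 fold change was 0.18 for the GABA and glycine presynapse, 0.23 for the inhibitory postsynapse and 0.252 for glutamate release and uptake. It was 0.212 for glutamate auxiliary and scaffold genes, 0.219 for cholinergic genes and 0.102 for the neuromuscular list, against 0.0426 over all genes. Higher in RFR at an unadjusted p under 0.05 were 5 of 14, 7 of 13 and 4 of 19 tested genes, in that order. For the later lists the counts were 14 of 45, 1 of 6 and 1 of 10, where 7.30% of all genes reached it. In glutamate release and uptake 1 gene was lower at that p. The smallest p in these lists belonged to cnih2, an auxiliary AMPA subunit, at 8.18 ± 1.27 FPKM in RFR and 5.33 ± 0.505 FPKM in Control embryos (0.57 ± 0.114, limma adjusted p = 0.235, unadjusted 0.000138). It was followed by si:ch73-28h20.1, a member of the lymphocyte antigen 6 family, at 7.02 ± 1.95 and 3.26 ± 1.11 FPKM (1.0 ± 0.21, limma adjusted p = 0.24), and by the vesicular GABA and glycine transporter slc32a1, at 20.1 ± 2.04 and 15.8 ± 1.22 FPKM (0.34 ± 0.079, limma adjusted p = 0.25). At 120 hpf the medians lay between -0.0828 and 0.0657, against -0.00346 over all genes. An unadjusted p under 0.05 was reached by 1 gene, of the glutamate auxiliary and scaffold list, lower in RFR (2.35% of all genes).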

How the data were processed

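RNA of whole zebrafish embryos and larvae was sequenced in 16 libraries, 4 in each of 4 groups. Per the file headers, the authors deposited a table of FPKM per gene, and the sources used here do not give the program behind it. The build was GRCz11 per the submitters' processing notes, which also list DESeq2, HISAT2 and Bowtie2 without saying which step each did or in which version. The deposited summaries give counts of reads that passed the authors' filter and of genes and transcripts, the percent of reads mapped and of rRNA, and the signal of each library as its raw read total. No count model was run, since FPKM are no counts. FPKM rest on the authors' scaling by mapped fragments and carry no depth of their own, so no counting interval is given for a gene.

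Values were taken as log2(FPKM + 0.5) from the deposited FPKM and fitted with limma 3.58.1 (R 4.3.3, with a mean-variance trend) as 1 mean per group over all 16 libraries, without a term for replicate number. Rows with at least 0.5 FPKM in 4 or more libraries were tested, 23026 of 32513, two-sided, with Benjamini-Hochberg adjustment over all of them and a threshold of 0.05. The comparisons were RFR with Control at each stage, the difference of these effects, and 120 with 48 hpf in each treatment. Alternatives were pseudocounts of 0.1 and 1, no filter or one of 1 FPKM, quantile normalization, median-ratio scaling, the compared groups alone, a replicate block, replicates 1 to 3 alone, a term for replicate 4, library weights, and leaving out each library. All columns of per-sample values were assigned to a library by their names.

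The subunits, the gene lists and the tests were chosen with earlier results of these data known. Genes were named by rule: for each comparison of RFR with Control the 10 tested subunits of smallest p, for the stages the 3 largest called rises and falls of each class in Control embryos with a mean of at least 1 FPKM in a Control group, the 3 highest levels of each class and stage, the muscle nicotinic subunits throughout, and from each list of synaptic genes the 3 of smallest p and the 3 of largest change between the stages, of which the text gives some. Some subunits that this rule gives are not reported here. Of the genes on the lists, 196 were matched by symbol, 13 through a RefSeq symbol or synonym, and 5 were not matched. No sequence is printed, and RefSeq (GRCz12tu) served for names and gene order only.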

Additional observations from a re-analysis of the deposited data

Results flagged for a closer look

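Within a group of 4 libraries, a value was listed here when the highest or lowest library had a gap to the nearest other library that took up more of the group's range than Dixon's 95% limit allows. This was met in 11 of 220 groups of values looked at, and chance alone gives about 1 in 20, or 5%.

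Subunits that stood apart at 120 hpf were chrna1, with 19.3 FPKM in RFR replicate 4, the lowest of its group, and chrne, with 17.4 FPKM in RFR replicate 3, the highest. In the Control group of that stage chrna5 was highest in replicate 3, at 6.08 FPKM. The summed GABA-A subunits were lowest in RFR replicate 3 at 120 hpf, at 89.1 FPKM.

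At 48 hpf chrnd was lowest in RFR replicate 3, at 11.5 FPKM. Among the Control libraries of 48 hpf replicate 4 was the highest for glrbb, at 15.3 FPKM, and for chrna10a, at 0.38 FPKM, and replicate 2 was the lowest for gria2a, at 8.66 FPKM, and for gria4b, at 6.27 FPKM. Both AMPA genes have their lowest value in the same Control library.

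The rRNA share was highest in RFR 120 hpf replicate 4, at 0.24%, and in Control 120 hpf replicate 1, at 3.2%.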

How the results depend on the processing

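The counts of subunits called stayed within 1.5 times of those reported in all 54 values from alternatives other than leaving out a library, over the 5 comparisons, and in 47 of the 48 values with 1 library left out. The exception was RFR against Control at 48 hpf, where the count ranged from 0 to 5, with 5 reached without RFR replicate 1. The median log2 fold change between the stages moved by more than the spread between replicates in Control embryos, from 1.13 to 1.23 with the filter at 1 FPKM, 1.02 with median-ratio scaling, 1.42 and 0.893 with pseudocounts of 0.1 and 1, and 0.649 with quantile normalization. In RFR embryos the reported 0.958 became 1.2 and 0.723 with these pseudocounts and 0.504 with quantile normalization. Signs reversed for muscle nicotinic genes near 0 that were not called. On replicates 1 to 3 the effect of RFR at 120 hpf was 0.04 for chrna1 and 0.06 for chrnb1, the difference of RFR effects for chrnb1 was -0.06 with library weights, and chrna1 changed by 0.03 between stages in Control under quantile normalization. With 1 library left out, the RFR effect ranged from -0.11 to 0.06 for chrnb1 at 48 hpf and at 120 hpf from -0.15 to 0.04 for chrnb1 and -0.11 to 0.23 for chrng. The difference of effects ranged from -0.11 to 0.09 for chrnb1 and -0.18 to 0.02 for chrnd, and the stage change of chrna1 in Control from -0.07 to 0.04. The cause of these shifts was not tested. The correlation of deviations from the group means had a median of 0.0499 over 24 pairs of same-numbered libraries (range -0.186 to 0.308) and of -0.0202 over 72 other pairs. The 6 pairs of replicate 4 libraries all deviated together (0.164 to 0.308), whereas the pairs of replicates 1, 2 and 3 did so in part only, and RFR 48 hpf replicate 1 correlated best with Control 48 hpf replicate 2 (0.333). Not every pair exceeded 0.1, so the numbers were not taken to pair the samples. With a replicate block limma called 0 subunits at 48 hpf (13 at an unadjusted p under 0.05), 0 at 120 hpf, 0 for the difference, and 54 in RFR and 58 in Control between stages. Over all genes it called 1, 1, 0, 15152 and 15357 of 23026, in that order. At 48 hpf 1688 genes had an unadjusted p under 0.05 with RFR higher. The within-group coefficient of variation had a median of 11.6% in RFR and 12.2% in Control at 120 hpf and 19.8% and 17.1% at 48 hpf, over subunits of at least 0.5 FPKM, which limits the differences that 4 libraries can show.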
